A study of Homo sapiens with 6 samples.

Results

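The subject here is a set of 10 human genes for cell surface receptors that respond to metabolites and nucleotides: SUCNR1, P2RY1, P2RY2, P2RY8, P2RY11, P2RY13, P2RY14, GPR84, GPR35 and FFAR2. They were chosen by name, with earlier results of the same comparison known, so their differences between the groups are given as a description, with no p-value, and a count of those past the threshold of the fit over all genes is given only beside the share of all genes that pass it. Of the 10, 8 were found by Ensembl identifier among the 23227 genes of the count table, and 6 passed the filter on low counts that left 14635 genes. P2RY13 (ENSG00000181631) and P2RY14 (ENSG00000174944) had no values in the table used and are not analysed here. P2RY1 and FFAR2 had too few counts for the filter.

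RNA was sequenced from MV4-11, a long-established line of human acute myeloid leukaemia cells with a KMT2A-AFF1 fusion and an internal duplication in FLT3. The 3 control libraries were labelled NC, wild type and without treatment, and the 3 others were labelled as a knockdown of ENO1, which encodes alpha-enolase, an enzyme of glycolysis. The knockdown columns carry the name of 1 hairpin, all 6 libraries came from this 1 line, and what NC stands for, or whether the controls held a control hairpin, is not given. The comparison asks which transcripts differ between the knockdown cells, which keep a low level of ENO1, and the controls. Nothing in the labels says that the 3 libraries of a group are separate cultures, and the p-values therefore cover the spread among these libraries alone, which may be technical.

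These receptors are G protein-coupled receptors that read small molecules outside the cell. SUCNR1 binds succinate, an intermediate of the citric acid cycle, and most P2Y receptors bind ATP, ADP, UTP or nucleotide sugars that cells release or spill. In blood cells they are best known for roles in migration, cytokine release and responses to injury, and receptors for fatty acids and tryptophan products (FFAR2, GPR84, GPR35) serve similar roles in myeloid cells.

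ENO1 itself had 84016, 79566 and 80058 counts in the control libraries, in the order of their numbers, against 2225, 2225 and 2070 with the knockdown. Its level was 3262 ± 22.6 CPM (reads scaled to library size, on TMM-scaled library sizes, SD, n = 3) in the controls and 102 ± 1.25 in the knockdown, which is 3.13% of the control level. Library totals ran from 20044602 to 26373960 counts and were lower in each knockdown library than in each control. The knockdown libraries differed from the controls across the transcriptome: edgeR's quasi-likelihood test called 8767 of 14635 genes (59.9%) at an adjusted p below 0.05. Within their groups, control library 2 and knockdown library 3 stood furthest from the other two. Summed CPM of 11 myeloid markers ran from 1972 to 1990 in the controls and from 1880 to 1900 in the knockdown, with 5 markers higher, 4 lower and 2 without a call. T cell and erythroid markers stayed at or below 0.279 CPM in sum in every library. Summed megakaryocyte markers were 3.59 to 5.08 CPM in the controls and 8.89 to 11.3 in the knockdown, B cell markers 3.45 to 4.67 and 6.17 to 7.02, and epithelial and fibroblast markers 18.5 to 20.1 and 45.1 to 48.3. These sums rest on few genes. Of the tested markers, 2 of 3 megakaryocyte, 2 of 3 B cell and 2 of 2 epithelial and fibroblast genes were higher and 0 lower. The 3 megakaryocyte genes had log2 fold changes of 0.14, 0.45 and 3.42, the last for ITGB3. The part of these shifts in the receptor results below was not tested, and in bulk RNA fewer cells of a type and less RNA per cell cannot be told apart.

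SUCNR1 had the largest difference of the set, upwards in the knockdown, and a repeated motif in its start region, which is why that region is shown. The window of 250 bases before the RefSeq start (GRCh38.p14, chr3:151873393-151873642, plus strand) is printed 5′ to 3′ with motif matches in capitals. Of 2 windows of P2RY8, which stood lower, the one at a start inside the annotated gene is set beside it (chrX:1494381-1494630, minus strand). Neither it nor the other, before the 5′ end of the gene (chrX:1537186-1537435, not printed), held a match to any of the 9 motifs searched.
SUCNR1: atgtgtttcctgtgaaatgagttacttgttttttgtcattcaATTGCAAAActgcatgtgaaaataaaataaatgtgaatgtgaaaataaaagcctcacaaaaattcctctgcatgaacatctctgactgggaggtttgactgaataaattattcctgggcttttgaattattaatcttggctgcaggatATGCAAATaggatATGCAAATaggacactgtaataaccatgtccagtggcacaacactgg
P2RY8: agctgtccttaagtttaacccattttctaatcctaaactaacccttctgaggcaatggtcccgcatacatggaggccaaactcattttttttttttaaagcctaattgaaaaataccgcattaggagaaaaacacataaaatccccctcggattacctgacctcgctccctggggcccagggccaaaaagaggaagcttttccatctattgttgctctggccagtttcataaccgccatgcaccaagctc

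The capitals in the SUCNR1 window mark a match to the C/EBP motif TTNNGNAAT on the opposite strand (ATTGCAAAA, 208 bases before the start) and 2 copies of the octamer ATGCAAAT, 60 and 47 bases before the start, the motif of POU2F factors. The octamer was found in 571 of 35093 RefSeq windows of this length (1.63%), on either strand, and at least 2 copies in 13 windows (0.0370%). The 2 copies here lie in a directly repeated stretch of bases, and these shares were not matched for GC content. The C/EBP motif was found in 9.86% of windows. The other motifs searched on both strands were the core of the interferon-stimulated response element (3.02% of windows), the STAT element TTCNNNGAA (6.57%), the E-box CACGTG (6.34%), the PU.1 core GAGGAAGT (2.17%), the AP-1 site TGANTCA (6.57%), the TATA box TATAAA (10.7%) and the CCAAT box (32.0%), and their matches may overlap. A match describes the letters of the window and does not show a bound site, and a window without a match says nothing about the factor. The SUCNR1 window had a GC content of 35.2%, at or below which lay 6.19% of windows. Windows were found for 8 of the 10 genes, and P2RY2 and GPR84 had none.

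SUCNR1 (ENSG00000198829, chr3:151873643-151884619, plus strand, GRCh38) had 30, 22 and 29 counts in control libraries 1 to 3 and 571, 530 and 604 in knockdown libraries 1 to 3. In CPM these were 1.16, 0.902 and 1.19 against 26.5, 24.1 and 29.7. Every knockdown library lay above every control. The control mean was 1.08 ± 0.158 CPM and the knockdown mean 26.8 ± 2.83 (SD, n = 3), and the log2 fold change was 4.62 ± 0.13 (approximate SE). The ratio of the normalised counts was 24.6, with an exact 95% interval of 19.7 to 31.1 that covers counting error only. SUCNR1 ranked 18 from the top of all tested genes by log2 fold change. Its log2 fold change stayed between 4.42 and 4.69 when libraries were left out or the scaling and test were changed. The spread among knockdown libraries (coefficient of variation 10.6%) was above the 4.19% that counting error alone gives, while among controls it was 14.6% against 19.2%.

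**Figure D1:**
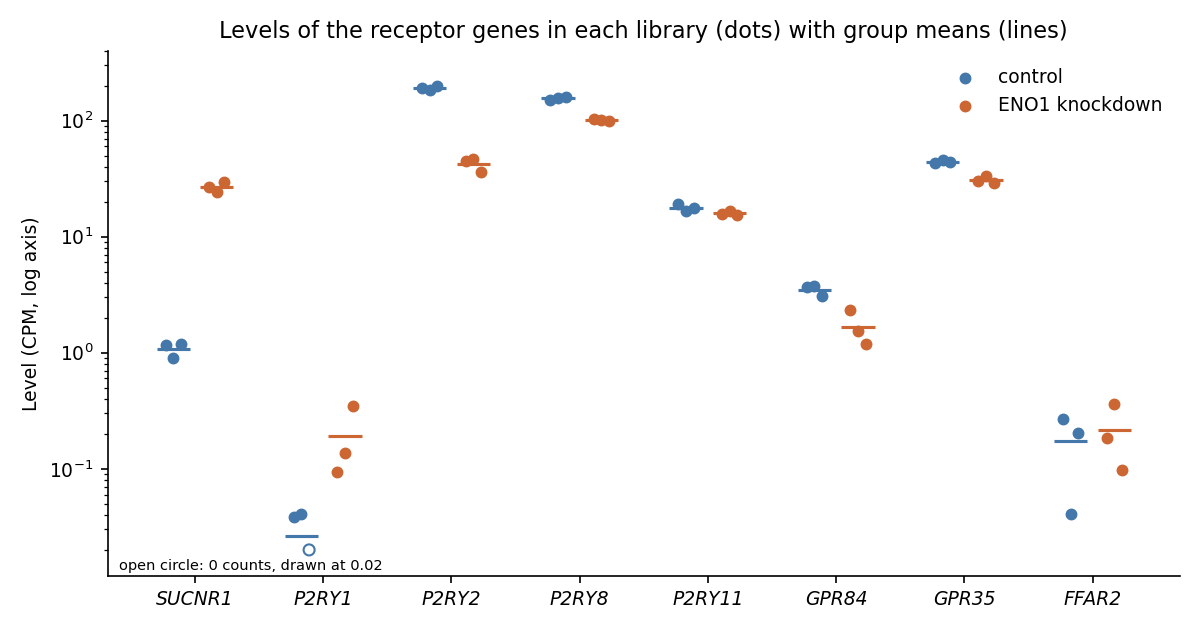
Level of each receptor gene with values in the table, in CPM on a logarithmic axis, with 1 point for each control and knockdown library, a line at each group mean and an open circle for the library with 0 counts. SUCNR1 sat between 0.902 and 1.19 CPM in the controls and between 24.1 and 29.7 in the knockdown, and P2RY2 between 184 and 197 and between 35.8 and 46.9.

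P2RY2 stood lowest relative to the controls. This receptor binds UTP and ATP and couples to Gq. P2RY2 (ENSG00000175591, chr11:73218298-73236352, plus strand) had 4954, 4495 and 4803 counts in the controls against 970, 1034 and 728 in the knockdown, or 191, 184 and 197 CPM against 45.1, 46.9 and 35.8. The groups did not overlap. The mean moved from 191 ± 6.40 to 42.6 ± 5.96 CPM, which is 22.3% of the control level, with a log2 fold change of -2.16 ± 0.09. A share of 0.506% of tested genes had a lower log2 fold change. Knockdown library 3 was the lowest, and without it the log2 fold change was -2.06. The coefficient of variation of the knockdown libraries was 13.99%, against 3.31% from counting error.

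P2RY8 is a Gα13-coupled receptor for S-geranylgeranyl-glutathione that restrains the migration of B cells. P2RY8 (ENSG00000182162, chrX:1462572-1537107, minus strand) lies in the pseudoautosomal region, where the Y chromosome holds an identical copy, so its counts depend on how the authors' counting treated that copy. It had 3932, 3801 and 3924 counts in the controls against 2218, 2217 and 2021 in the knockdown, or 152, 156 and 161 CPM against 103, 101 and 99.4. The knockdown libraries lay below all controls, with means of 156 ± 4.70 and 101 ± 1.89 CPM (64.7% of the control level) and a log2 fold change of -0.63 ± 0.04.

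P2RY11 binds ATP and couples to both Gq and Gs. P2RY11 (ENSG00000244165, chr19:10111538-10115372, plus strand) had 19.1, 16.5 and 17.8 CPM in the controls against 15.8, 16.7 and 15.2 in the knockdown. The groups overlapped, with a log2 fold change of -0.16 ± 0.08 and a level of 89.5% of control. Its value is uncertain, since 51.2% of its 50-base stretches also occurred in the read-through gene PPAN-P2RY11, which had 4 counts in the controls and 7 in the knockdown. P2RY11 also shares 113 exon bases with EIF3G on the opposite strand and 97 with PPAN.

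P2RY1, an ADP receptor that couples to Gq, was near the limit of detection. P2RY1 (ENSG00000169860, chr3:152834693-152841439, plus strand) had 1, 1 and 0 counts in the controls against 2, 3 and 7 in the knockdown. Its ratio of normalised counts was 7.01 with an exact 95% interval of 1.56 to 64.5, from 2 counts against 12. This interval covers counting error only and leaves out the spread among libraries, where knockdown library 3 held 7 of the 12 counts.

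The remaining receptors respond to fatty acids and tryptophan products. GPR35 (ENSG00000178623, chr2:240605431-240631259, plus strand), a receptor that responds to kynurenic acid among other ligands, had 1126, 1125 and 1062 counts in the controls against 652, 732 and 589 in the knockdown, or 43.4, 46.1 and 43.6 CPM against 30.3, 33.2 and 28.97. The groups did not overlap, and the mean moved from 44.4 ± 1.52 to 30.8 ± 2.17 CPM, with a log2 fold change of -0.52 ± 0.06. GPR35 shares 654 exon bases with CAPN10, a calpain gene on the same strand, which fell by 0.47 on the log2 scale (adjusted p = 5.43e-05), so reads of the 2 genes cannot be fully told apart. GPR84 (ENSG00000139572, chr12:54362445-54364487, minus strand), a receptor for medium-chain fatty acids, had 95, 91 and 75 counts against 50, 34 and 24. Its level moved from 3.49 ± 0.359 to 1.68 ± 0.584 CPM, with no overlap and a log2 fold change of -1.05 ± 0.22. Without knockdown library 3 the GPR84 value was -0.86, and without knockdown library 1 it was -1.35. FFAR2 (ENSG00000126262, chr19:35443907-35451767, plus strand), a short-chain fatty acid receptor, had 7, 1 and 5 counts in the controls against 4, 8 and 2 in the knockdown, and the groups overlapped.

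**Figure D2:**
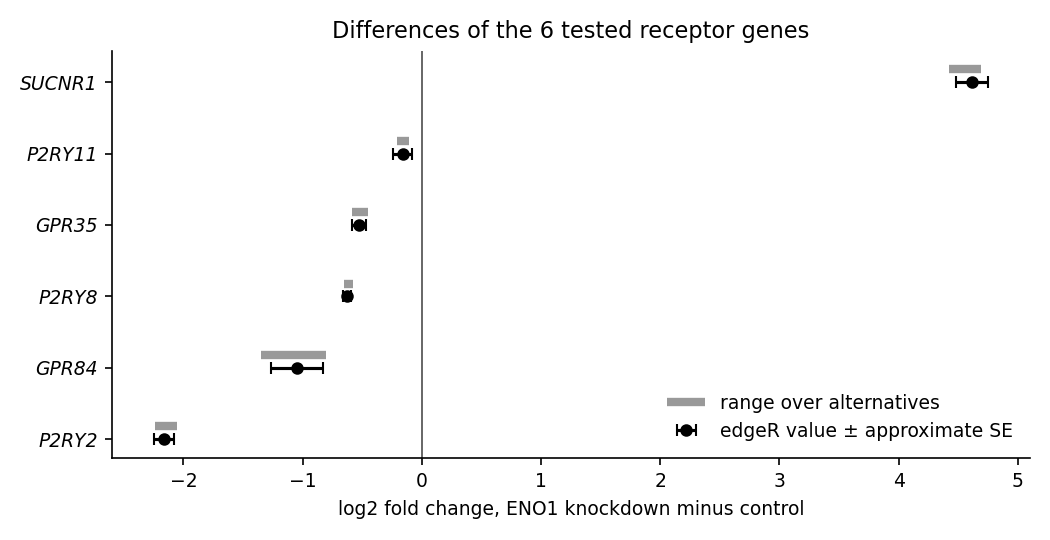
Log2 fold change of knockdown over control for the receptor genes past the count filter, with bars of 1 approximate standard error and grey bands for the range over the alternatives. SUCNR1 lies at 4.62, P2RY2 at -2.16 and P2RY11 at -0.16.

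Among the 6 tested receptor genes, 1 passed the threshold as higher (SUCNR1) and 4 as lower (P2RY2, P2RY8, GPR84 and GPR35), and P2RY11 passed in neither direction. Over all tested genes, 29.4% passed as higher and 30.5% as lower, and nothing is read from the set's counts, since the genes were chosen on this contrast. Asking for at least a 2-fold change as well left 1 higher (SUCNR1) and 2 lower (P2RY2 and GPR84), against 6.51% and 3.56% of tested genes. The libraries of the 2 groups did not overlap for SUCNR1 on the higher side and for the same 4 on the lower side, where 31.8% and 32.5% of tested genes had no overlap. P2RY1 had no overlap on the higher side, from 1, 1 and 0 counts against 2, 3 and 7. It is outside those tested genes, so these shares do not cover it and nothing is read from it. Knockdown library 3 had the highest level of SUCNR1 and P2RY1 and the lowest level of the other 6 genes among the knockdown libraries, and it is also the knockdown library furthest from the others over all genes. Its part in these spreads was not tested, and leaving it out turned no direction.

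Per exon length, the order of the genes differed between the groups. In the controls the levels in RPKM (CPM divided by exon length in kilobases) ran P2RY2 (66.7), P2RY8 (35.0), GPR35 (8.72), P2RY11 (7.75), GPR84 (1.71), SUCNR1 (0.259), FFAR2 (0.0801) and P2RY1 (0.00393), and no neighbours in this order overlapped. In the knockdown it ran P2RY8 (22.7), P2RY2 (14.9), P2RY11 (6.93), SUCNR1 (6.40), GPR35 (6.06), GPR84 (0.823), FFAR2 (0.100) and P2RY1 (0.0283). There the ranges of P2RY11 and SUCNR1, of SUCNR1 and GPR35, and of FFAR2 and P2RY1 overlapped. Of the summed RPKM of the 8 genes, SUCNR1 held 0.215 ± 0.0275% in the controls and 11.1 ± 1.67% in the knockdown, P2RY2 held 55.5 ± 0.639% and 25.6 ± 2.53%, and P2RY8 held 29.1 ± 0.675% and 39.2 ± 1.34%. In CPM the 8 genes summed to 414 ± 8.79 in the controls and 219 ± 7.36 in the knockdown, and without P2RY2 to 223 ± 3.80 and 177 ± 1.68.

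**Figure D3:**
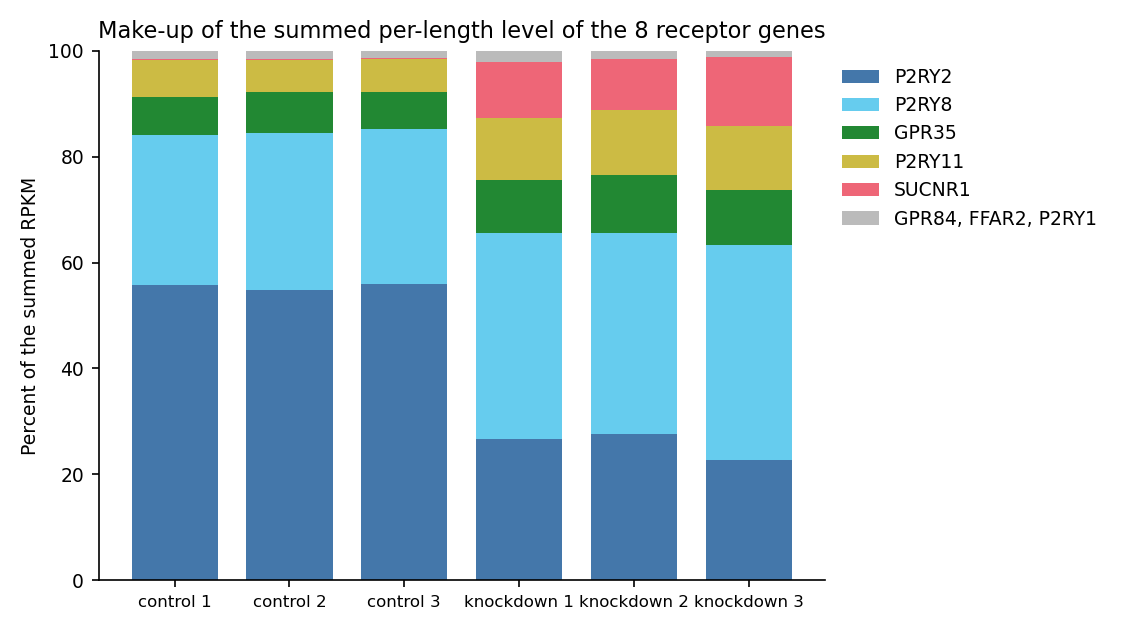
Make-up of the summed RPKM of the 8 receptor genes in each library, as stacked percentages. SUCNR1 took 9.67 to 12.9% in the knockdown libraries and at most 0.231% in the controls, and P2RY2 took 54.7 to 55.9% in the controls.

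Genes were ranked by likeness to SUCNR1 over the 6 libraries, as the root mean square difference of log2 CPM from the control mean. Of 13161 genes compared, the closest were EVPL (0.113), ARHGAP10 (0.189), DDX60 (0.203), IGFBP5 (0.226) and AXL (0.234). With 2 groups this measure mostly reflects the size of the group difference and does not show shared control. Log2 fold changes were 4.53 for EVPL, 4.42 for ARHGAP10, 4.61 for DDX60, 6.75 for IGFBP5 and 4.36 for AXL, beside 4.62 for SUCNR1. EVPL encodes a cornified envelope protein, DDX60 an interferon-induced helicase, IGFBP5 an insulin-like growth factor binding protein and AXL a receptor tyrosine kinase. EVPL had 22, 19 and 24 counts in the controls against 440, 423 and 430 in the knockdown. AXL had 55, 62 and 64 counts and 1136, 1037 and 1021. IGFBP5 had 0, 0 and 1 counts in the controls against 48, 44 and 37 in the knockdown, so both its fitted fold change and its place among these genes depend on the prior count.

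Other receptors were counted from gene lists, together with genes for enzymes, transporters, G proteins and regulators of receptor signals. The lists held 155 further genes in 15 groups, of which 101 were tested. Of these, 34 were higher, 37 lower and 30 had no call, with a median log2 fold change of 0.01. Over all tested genes 29.4% were higher and 30.5% lower, with a median of 0.00, and the count of each group below is to be read against these shares. The sizes given for these genes, in parentheses or after a verb, are log2 fold changes of knockdown over control with adjusted p from edgeR's quasi-likelihood test, 3 libraries a group. P2RY6, a UDP receptor and the only other P2Y gene tested, rose from 37.5 ± 1.65 to 53.9 ± 3.34 CPM (log2 fold change 0.52, adjusted p = 5.75e-09). Its gene lies 28153 bases from P2RY2, which stood lower. Of 5 ATP-gated P2X channel genes tested, 4 were lower and 1 had no call (median -0.42), where 30.5% of all tested genes were lower. They include P2RX7, which fell from 12.6 ± 0.903 to 5.02 ± 0.264 CPM (-1.32, adjusted p = 5.45e-11), P2RX1 at -0.31 (adjusted p = 3.09e-07) and P2RX4 at -0.42 (adjusted p = 1.74e-05). P2RX6 was called at -0.98 (adjusted p = 0.0148), and this call was lost without control library 1, without knockdown library 3 and with DESeq2. The adenosine receptors ADORA2B (0.36, adjusted p = 6.24e-05) and ADORA1 (0.78, adjusted p = 0.0102) were both higher, and the ADORA1 call was lost without control library 2 and with DESeq2.

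**Figure D4:**
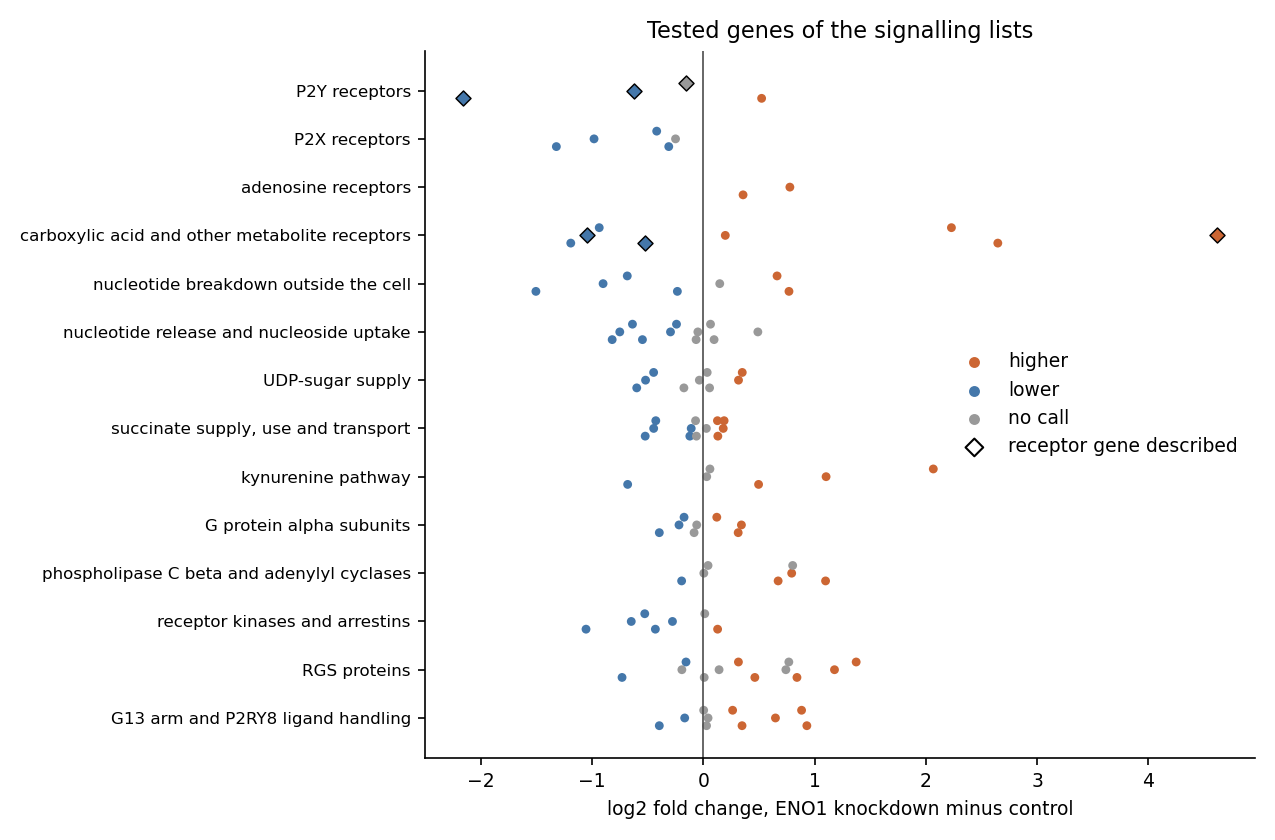
Log2 fold change of each tested gene in the pathway groups, 1 row of points for each group, coloured by the call, with diamonds for the receptor genes described above. Points are spread vertically for display only, and P2X genes lie between -1.32 and -0.25 and receptor kinases and arrestins between -1.06 and 0.13.

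Other metabolite receptors moved both ways, with 3 of 5 higher and 2 lower. GPR183, an oxysterol receptor, rose from 3.46 ± 0.448 to 21.7 ± 1.39 CPM (2.65, adjusted p = 1.15e-17). FFAR4, a long-chain fatty acid receptor, rose from 0.688 ± 0.281 to 3.22 ± 0.862 CPM (2.23, adjusted p = 1.52e-07). GPR132 rose by 0.20 (adjusted p = 0.00082). OXER1, a receptor for oxidised eicosanoids, was called at -0.94 (adjusted p = 0.0136), and the call was lost without knockdown library 1 and with DESeq2. GPBAR1, a bile acid receptor, fell by 1.19 (adjusted p = 0.0231), a call lost without knockdown library 1 or 2 and with DESeq2. FFAR3, ENTPD3, ENPP3, IDO1, ADCY1 and MED12L had fewer than 5 counts over all libraries and are near 0. The FFAR3 count is uncertain, since 74.5% of its 50-base stretches also occurred in other genes, mainly GPR42.

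Of 7 nucleotide breakdown genes tested, 2 were higher and 4 lower. ENPP2, the lysophospholipase D autotaxin, fell by 0.90 (adjusted p = 2.71e-14), and ADA2, an adenosine deaminase, fell from 24.4 ± 1.55 to 8.57 ± 1.01 CPM (-1.51, adjusted p = 6.04e-14), whereas ADA, the intracellular adenosine deaminase, rose by 0.77 (adjusted p = 7.4e-14) and CD38 by 0.66 (adjusted p = 0.000385). Of 11 genes for nucleotide release and nucleoside uptake, 6 were lower and 5 had no call, beside 30.5% lower over all tested genes. These included the nucleoside transporter SLC29A1 (-0.82, adjusted p = 2.86e-16), the volume-regulated channel subunit LRRC8D (-0.55, adjusted p = 1.11e-12), the concentrative transporter SLC28A3 (-0.75, adjusted p = 5.41e-08) and the channel PANX1 (-0.64, adjusted p = 1.99e-07). SLC17A9, the vesicular nucleotide transporter, fell by 0.30 (adjusted p = 3.05e-07).

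The genes that supply and use succinate, the ligand of SUCNR1, showed small differences in both directions: 4 of 12 tested genes were higher, 5 lower and 3 had no call. The monocarboxylate transporter SLC16A1 fell by 0.52 (adjusted p = 1.31e-12). The mitochondrial dicarboxylate carrier SLC25A10 fell by 0.45 (adjusted p = 0.000251) and is uncertain, since 41.2% of its 50-base stretches occurred in another gene. The succinate dehydrogenase genes SDHC (0.13, adjusted p = 0.00368), SDHA (0.19, adjusted p = 0.0046) and SDHD (0.18, adjusted p = 0.00036, with 13.1% shared stretches) and OGDH (0.13, adjusted p = 0.00172) were higher. SDHB was lower (-0.11, adjusted p = 0.0233), a call that was lost with 2 scalings, with the stricter filter and without control library 1, control library 2 or knockdown library 1. Over the other scalings, filters, tools and left-out libraries, the number of lower calls in this group ranged from 2 to 5.

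Kynurenic acid, a ligand of GPR35, is made in a branch of the kynurenine pathway. Of 6 tested genes of this pathway, 3 were higher, 1 was lower and 2 had no call. The list genes that make kynurenic acid, KYAT1, KYAT3 and AADAT, were not among those called, and not all of them were tested. KYNU, kynureninase, rose from 19.8 ± 1.49 to 83.1 ± 5.36 CPM (2.07, adjusted p = 8.37e-21), KMO by 1.10 (adjusted p = 7.42e-05) and QPRT by 0.50 (adjusted p = 1.98e-10, with 15.6% shared stretches), and HAAO fell by 0.68 (adjusted p = 1.77e-05). The genes that make, use or carry UDP-sugars, ligands of P2RY14, had 2 of 9 higher and 3 lower, among them UAP1 (-0.60, adjusted p = 1.42e-10), UGGT1 (-0.52, adjusted p = 2.48e-12) and UXS1 (-0.45, adjusted p = 3.62e-08). UGDH was higher by 0.32 (adjusted p = 0.00681), a call lost with DESeq2.

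Downstream of the receptors, the G protein alpha genes were split 3 higher, 3 lower and 2 without a call. GNAS rose by 0.34 (adjusted p = 2.59e-11) and GNAQ by 0.31 (adjusted p = 1.06e-07), and GNAI2 by 0.12 (adjusted p = 0.000635), while GNA13, which P2RY8 uses, fell by 0.40 (adjusted p = 7.07e-08) and GNAI3 by 0.22 (adjusted p = 2.52e-05). PLCB2, a phospholipase C that Gq activates, rose from 135 ± 1.32 to 215 ± 6.69 CPM (0.67, adjusted p = 1.06e-15). ADCY9 (0.79, adjusted p = 5.55e-14) and ADCY4 (1.10, adjusted p = 3.2e-07) were higher, and ADCY7 was lower (-0.20, adjusted p = 0.00706), a call lost with library-size scaling.

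Receptor kinases and arrestins, which switch receptors off, had 5 of 7 genes lower and 1 higher, beside 30.5% lower and 29.4% higher over all tested genes. GRK6 fell from 143 ± 3.15 to 68.8 ± 1.06 CPM (-1.06, adjusted p = 1.03e-18), ARRB2 by 0.53 (adjusted p = 6.09e-11), GRK3 by 0.43 (adjusted p = 1.13e-05) and GRK2 by 0.28 (adjusted p = 2.47e-08). ARRB1 was the one called higher, at 0.13 (adjusted p = 0.000844). Of 12 RGS genes, which shorten G protein signals, 5 were higher and 2 lower. RGS16 fell by 0.73 (adjusted p = 3.03e-09), RGS12 rose by 0.46 (adjusted p = 1.34e-06) and RGS19 by 0.31 (adjusted p = 9.81e-07). RGS1 (0.84, adjusted p = 0.00803) lost its call without knockdown library 3, and RGS2 (1.18, adjusted p = 0.00897) without control library 3 and with DESeq2. Of 10 genes of the Gα13 arm and the handling of the P2RY8 ligand, 5 were higher and 2 lower, with ROCK2 rising by 0.88 (adjusted p = 8.78e-16), ARHGEF12 by 0.93 (adjusted p = 1.35e-08), GGT5 by 0.65 (adjusted p = 2.02e-05) and ABCC1, which exports the P2RY8 ligand, by 0.26 (adjusted p = 5.4e-05).

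Genes within 250 kb of the receptor genes were compared with them. Around P2RY8, which stood lower, 8 neighbours were tested, of which 5 were higher and 0 lower by edgeR's quasi-likelihood test, beside 29.4% higher and 30.5% lower over all tested genes. They were the cytokine receptor genes IL3RA (0.83, adjusted p = 1.31e-14), CRLF2 (1.35, adjusted p = 0.00139) and CSF2RA (0.32, adjusted p = 0.000316), and ASMTL (0.23, adjusted p = 0.00538) and LINC00106 (0.36, adjusted p = 0.00704). Genes of the pseudoautosomal region share the limit given for P2RY8. Around P2RY2, 2 of 7 tested neighbours were higher and 3 lower, including FCHSD2 (-0.57, adjusted p = 1.38e-10). Around GPR35, 2 of 6 were higher and 2 lower, around FFAR2, 1 of 9 was higher and 4 lower, and around GPR84, 5 of 12 were higher and 2 lower. ZNF385A, 4646 bases away, rose by 0.74 (adjusted p = 4.78e-16). The 2 loci named GPR84-AS1 lie on the opposite strand and share no exon bases with GPR84. The locus at 1.63, called higher, had 10, 3 and 6 counts in the controls against 12, 20 and 19. The locus at 0.90, not called, had 3, 8 and 10 against 10, 12 and 12. Both passed the count filter only through the knockdown libraries, so no p-value is given for them. Whether the call held under the alternatives was not examined for these loci. Around SUCNR1, the only neighbour with values was LINC02917, at 233554 bases. It had 3, 3 and 3 counts in the controls against 10, 13 and 17 in the knockdown (2.33). LINC02917 passed the count filter only through the knockdown libraries, where it was higher, so no p-value is given for it. Around P2RY11, 3 of 14 were higher and 5 lower, where EIF3G was at 0.11 (adjusted p = 0.00312) and PPAN at -0.18 (adjusted p = 0.0298), a call lost in 9 of 15 alternatives. Near P2RY13 and P2RY14 the tested neighbour was IGSF10 (0.63, adjusted p = 0.0265), whose call was lost in 6 of 14 alternatives.

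**Figure D5:**
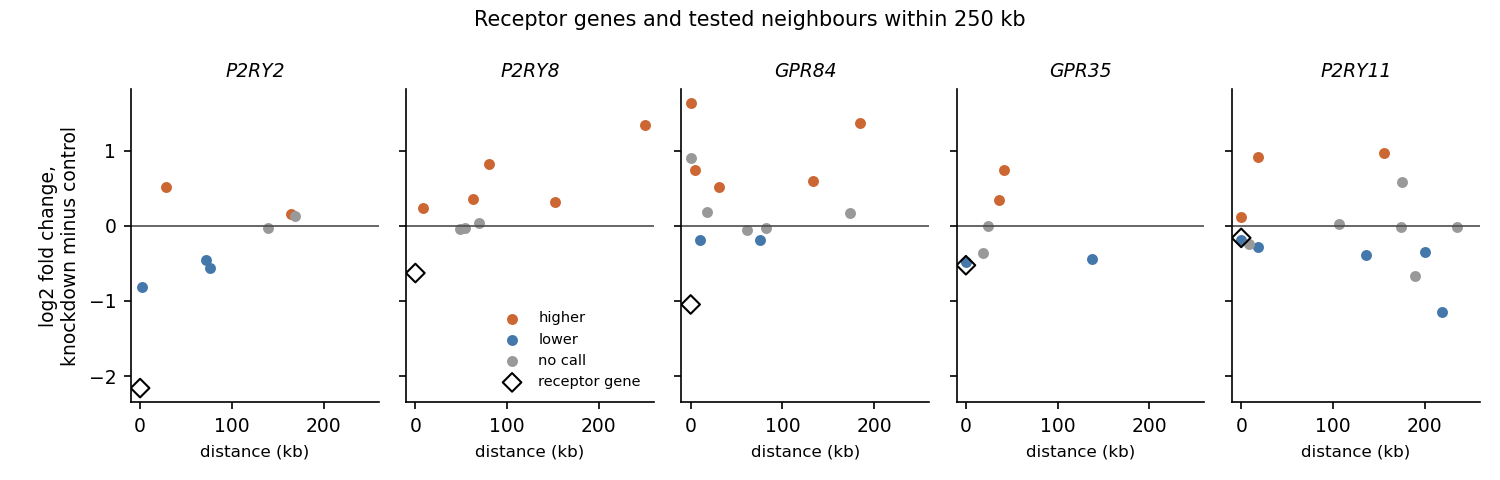
Log2 fold change of the tested genes within 250 kb of 5 receptor genes, against the distance in kilobases, coloured by the call, with a diamond for the receptor gene at a distance of 0. The neighbours of P2RY8 called by the test lie between 0.23 and 1.35, while P2RY8 lies at -0.63.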

How the data were processed

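RNA sequencing was done on 6 libraries of MV4-11, 3 of each group, from total RNA with an Illumina TruSeq kit, per the labels' protocols. HISAT2 2.0.5 and hg38 were used, per the submitters' processing notes. Which counter, annotation and strand setting were used is not given in the sources used here. Whole-number read counts per Ensembl gene were deposited by the authors, 1 column for each library, per the file headers, and no gene had a sum under 2.

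Counts were filtered with filterByExpr (8592 genes removed) and tested with edgeR 4.0.16 in R 4.3.3 (TMM factors, robust quasi-likelihood fit and test, two-sided), and p-values were adjusted by Benjamini-Hochberg over 14635 genes at 0.05. The filter asks for enough counts in as many libraries as a group holds, so a gene can pass through 1 group alone. The p-values take no account of that. Standard errors are approximate (size of the log2 fold change over the root of the F statistic). Positions, exon lengths and shared 50-base stretches came from GENCODE 29 and promoter windows from RefSeq (GRCh38.p14). The test was tried on simulated counts with known changes. Other fits used RLE, upper-quartile and library-size scaling, no filter, 5 CPM in 3 libraries, DESeq2 1.42.0, limma 3.58.1 voom, the replicate number as a block, and libraries left out.

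The receptors, gene lists, motifs and alternatives were chosen with earlier results of these data known. The rule named the 10 receptors, ENO1, up to 4 genes per list by adjusted p, list genes with fewer than 5 counts, genes overlapping a receptor, and the 5 genes most like SUCNR1 (prior count 2, at least 1 CPM). SDHA, SDHB, SDHC, GPBAR1, ARRB1, ABCC1, RGS2, GNAI2, SLC17A9 and neighbours that overlap no receptor were named after their values were seen.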

Additional observations from a re-analysis of the deposited data

How the results depend on the processing

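Of 89 values of the receptor genes under the other fits, 89 kept their direction and their side of the adjusted p threshold of 0.05. Of 1126 values of the other named genes, 1088 did, 38 lost their call and 0 reversed. A stricter adjusted p of 0.01 and a 2-fold minimum were applied to the list counts below and not to these values. Of 510 counts of list genes, 442 stayed within 1.5 times and 68 moved. Asking for a change of at least 2-fold besides the adjusted p left 953 genes higher and 521 lower over all genes. It left 1 receptor gene higher and 2 lower, 7 list genes higher and 4 lower, and 4 neighbours higher and 1 lower. Filtering at 5 CPM removed GPR84. With library-size scaling 4900 genes were higher and 3843 lower, against 4309 and 4458. The median log2 fold change of all genes was at most 0.058 under another scaling, 0.072 with no filter and 0.083 with DESeq2, which was also fitted without the filter.

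The replicate numbers did not pair the libraries: deviations of same-numbered libraries correlated at 0.00289, 0.00917 and -0.0225, and not every library correlated best with its own number (control 3 with knockdown 2, 0.0259). With the replicate number as a block, 4165 genes were higher and 4325 lower, and no receptor call changed.

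Leaving out 1 library at a time gave 3950 to 4228 genes higher and 4140 to 4515 lower. P2RY1 rests on 2 counts against 12 and FFAR2 on 13 against 14. Fitted with no filter, P2RY1 had a log2 fold change of 2.58 ± 1.27 and FFAR2 of 0.30 ± 0.81, and neither was called.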

Other observations

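The octamer search was made with the SUCNR1 window already in view, so it tests nothing. Of 193 tested genes other than the receptors whose start window held at least 1 octamer, 77 were higher (39.9%) and 59 lower (30.6%), with a median log2 fold change of 0.08. Of 10541 tested genes with any window, 30.3% were higher and 33.3% lower, with a median of -0.01. At least 2 octamers were found for 5 tested genes, of which 3 were higher and 2 lower.

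Several markers of the myeloid list moved far in opposite directions. LYZ, lysozyme, moved from 274 ± 3.43 to 51.4 ± 1.01 CPM (log2 fold change -2.41, adjusted p = 3.23e-27), MPO, myeloperoxidase, from 22.4 ± 1.19 to 3.66 ± 0.278 (-2.61, adjusted p = 5.17e-18), and ITGAM, the integrin CD11b, from 11.9 ± 0.151 to 41.9 ± 0.206 (1.81, adjusted p = 8.35e-19). ITGB3, an integrin of platelets, moved from 0.470 ± 0.0393 to 5.06 ± 0.682 CPM (3.42, adjusted p = 1.38e-12). These genes were named after their values were seen.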
